A study of Mus musculus with 85 samples.

Results

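The comparison described here asks which hippocampal genes answered a methionine-restricted feed differently in AD mice than in control mice. It is the interaction of genotype and feed: the restricted minus standard difference in AD mice, minus the same difference in control mice, taken within each sex and averaged over both. A negative value therefore means that the restricted feed moved a gene lower, or less high, in AD mice than in control mice. All 85 of the 85 libraries enter it, 1 per mouse, from 44 AD mice and 41 control mice.

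Total RNA of the hippocampus was sequenced from mice aged 8 months. Control mice were of the strain C57BL/6J and AD mice of the strain APPswePSEN1dE9. Mice of each genotype ate standard feed or a methionine-restricted feed. Males comprised 11 control mice on standard feed, 10 control mice on restricted feed, 11 AD mice on standard feed and 11 AD mice on restricted feed. Females comprised 10, 10, 11 and 11 mice in the same order. The APPswePSEN1dE9 line carries transgenes for a mutated amyloid precursor protein and a mutated presenilin 1, both driven by the mouse prion protein promoter, so plaques form from expression that the normal App gene does not control. The labels do not say whether the control mice were littermates.

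Levels are in FPKM, a unit that corrects for the length of a transcript and the size of a library, after a further scaling between libraries. Depth is unknown, so precision rests on the spread between mice. Differences are on the log2(FPKM + 1) scale, ± the standard error (SE), and the test throughout is limma with Benjamini-Hochberg adjustment over 21244 loci at a threshold of 0.05. The locus that holds Prnp, whose promoter drives the transgenes, was between 874 and 1518 FPKM in AD mice and between 229.9 and 453 in control mice, with no overlap, and its interaction was -0.06 ± 0.085 (adjusted p = 0.969). The median correlation of a library with all others ran from 0.911 to 0.957, and the 3 lowest were AD females on standard feed replicate 5, AD females on restricted feed replicate 10 and control females on restricted feed replicate 5. Of the markers of hippocampal neurons, the locus that holds Camk2a was between 951.8 and 2332 FPKM over all groups. Prox1, a gene of dentate granule cells, was less even, and ran from 0.481 to 14.2 FPKM in control females on restricted feed.

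Dietary methionine feeds the cycle that makes S-adenosylmethionine, the methyl donor of the cell, and the transsulfuration pathway to cysteine, glutathione and taurine. Cells sense a shortage of amino acids through the kinase GCN2 and the transcription factor ATF4, and methionine restriction is known in rodents for raising the liver hormone FGF21. Dscaml1, the gene that leads the comparison, encodes a transmembrane protein of the immunoglobulin superfamily, close to DSCAM. Both proteins bind copies of themselves on neighbouring cells and are known from the mouse retina, where they keep neurites of 1 cell type from clumping and shape synaptic layers.

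Dscaml1 was the 1 locus of 21244 called in the interaction averaged over sex (0.00471% of loci), and it was lower. The restricted feed went with more Dscaml1 in control mice and with less in AD mice. The genotypes differed in Dscaml1 by little on standard feed and by more on restricted feed. At an unadjusted p under 0.05 there were 1102 loci (5.19%), where 1062 would be expected with no difference at any locus.

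In control males Dscaml1 ran from 35.3 to 48.5 FPKM with a median of 41.2 on standard feed, and from 36.1 to 51.3 with a median of 47.7 on restricted feed. In AD males it ran from 34.8 to 51.5 with a median of 39.7 on standard feed, and from 32.8 to 44.9 with a median of 37.3 on restricted feed. The 4 male groups overlapped, with 9 of 10 control males on restricted feed above, and 9 of 11 AD males on restricted feed below, the median of their own genotype on standard feed. Control females ran from 33.1 to 44.5 FPKM with a median of 41.0 on standard feed, and from 41.9 to 56.6 with a median of 51.1 on restricted feed. AD females ran from 37.6 to 49.9 with a median of 42.8 on standard feed, and from 22.2 to 48.7 with a median of 38.5 on restricted feed. Of the control females on restricted feed, 9 of 10 lay above every control female on standard feed, while 8 of 11 AD females on restricted feed lay below every control female on that feed.

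The averaged interaction of Dscaml1 was -0.39 ± 0.074 (95% interval -0.54 to -0.24, adjusted p = 0.0231). It had the same sign in both sexes, at -0.26 ± 0.104 in males (adjusted p = 0.996) and -0.52 ± 0.106 in females (adjusted p = 0.0419). The difference between the sexes, -0.26 ± 0.149 (95% interval -0.56 to 0.03), did not pass (adjusted p = 0.9999). Neither of the feed differences that make it up passed by itself: the difference was 0.23 ± 0.054 in control mice (adjusted p = 0.106) and -0.16 ± 0.052 in AD mice (adjusted p = 0.513). Between the genotypes, Dscaml1 differed by 0.03 ± 0.052 on standard feed (adjusted p = 0.930) and was lower in AD mice by -0.36 ± 0.053 on restricted feed (adjusted p = 1.61e-06), with 11 of 11 AD males and 11 of 11 AD females below the median of the control mice of their sex.

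The call of Dscaml1 was kept without each of the 85 libraries in turn, with an interaction between -0.41 and -0.36 and adjusted p from 0.00486 to 0.0488. It was lost when FPKM were used as deposited (-0.37, adjusted p = 0.113), and when all libraries were set to an equal total (-0.36, adjusted p = 0.0804). In females alone the call was lost without 18 of the 85 libraries, with adjusted p up to 0.112. The female call was also lost under both of those scalings, under the smaller pseudocount, and when the expression filter was dropped or made stricter. Fitting only the female groups, adding a replicate block, or removing the 3 libraries of lowest correlation lost it as well. Females still had calls in other settings, given below.

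Markers of hippocampal neurons leaned the same way as Dscaml1, with 0 called. Of the 10 genes of a tissue check for hippocampus 0 had a positive averaged interaction, with a median of -0.26, where the median over all loci was -0.01 and 46.5% of loci were positive. Camk2a, a kinase subunit of excitatory synapses, had -0.27 ± 0.111 (adjusted p = 0.934) and the transcription factor gene Neurod2 -0.24 ± 0.122 (adjusted p = 0.935). Per library, the mean log2 level of the 10 genes spanned 6.44 to 7.55 in 7 groups and 5.51 to 7.55 in AD females on restricted feed, where replicate 10, the mouse with the least Dscaml1, was the lowest. Without that mouse 1 of the 10 genes had a positive averaged interaction (median -0.17). The female median of the list was -0.24 with all libraries and -0.11 without that mouse. With the mean log2 levels of this list and of a myelin list as covariates, an alternative chosen after seeing the data, the interaction of Dscaml1 was -0.29 (adjusted p = 0.447). With covariates for choroid plexus, thalamus and habenula, striatum and meninges it was -0.39 (adjusted p = 0.00270). In whole tissue, fewer cells of a type and less RNA per cell cannot be told apart, and the part of the neuronal markers in the Dscaml1 result was not tested beyond these fits.

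Dscaml1 lies on chromosome 9 from 45427433 to 45753713 (GRCm38.p6, RefSeq). An antisense gene, 4833428L15Rik (chromosome 9, 45416626 to 45431730, GENCODE), overlaps its start on the opposite strand. The sources used here do not say whether fragments were counted by strand, so reads in the overlap cannot be assigned. Of the 37 measured genes for DSCAM-like and other self-binding immunoglobulin adhesion proteins, 25 had a positive interaction (median 0.04), and Dscaml1 was the 1 member called. Dscam itself was at 0.03 ± 0.299. Ptprk, a receptor phosphatase that binds itself between cells, had the next smallest p, with 0.19 ± 0.083 (adjusted p = 0.934). Of 35 cadherins and synaptic adhesion genes 16 were positive (median -0.03) and 0 called.

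Map9 came next and narrowly missed the threshold. It encodes a microtubule-associated protein of the mitotic spindle and lies on chromosome 3 from 82358072 to 82395268. Control males had 188 to 249 FPKM (median 224) on standard feed and 220.3 to 262 (median 244) on restricted feed. AD males had 224 to 272 (median 253) on standard feed and 207 to 247 (median 237) on restricted feed. Thus 9 of 10 control males on restricted feed lay above, and 11 of 11 AD males on restricted feed below, the standard-feed median of their genotype, though ranges overlapped. Control females had 182 to 249 FPKM (median 207) on standard feed and 209.7 to 255 (median 224) on restricted feed, and AD females 196 to 276 (median 220.0) and 177 to 238 (median 211). The opposite feed differences were seen in females too, with 10 of 10 control females above and 9 of 11 AD females below. The interaction was -0.23 ± 0.047 (95% interval -0.32 to -0.13, adjusted p = 0.0735), with -0.25 ± 0.067 in males and -0.21 ± 0.067 in females. Map9 passed in 4 other settings, with adjusted p from 0.00746 with the 4 tissue covariates to 0.0459 with array weights, and without 6 of the 85 libraries.

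The next lower genes by p did not pass either. Cebpz, a nucleolar CCAAT-binding protein gene, had -0.33 ± 0.074 (adjusted p = 0.208), and 10 of 10 control males on restricted feed lay above, and 11 of 11 AD males on that feed below, the standard-feed median of their genotype. In females 8 of 10 control mice lay above it and 6 of 11 AD mice below it. Upf3b, a factor of nonsense-mediated mRNA decay, had -0.28 ± 0.076 (adjusted p = 0.804). Lias, the lipoic acid synthase, which itself uses S-adenosylmethionine, had -0.16 ± 0.047, Dek, a chromatin protein gene, -0.17 ± 0.050, and the locus that holds Pde6h, known from cone photoreceptors, -0.32 ± 0.088, with adjusted p from 0.804 to 0.934. Each of these 5 had the same sign in males and in females.

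Adamts17, a secreted metalloprotease gene of the extracellular matrix, had an interaction of -0.64 ± 0.163 (adjusted p = 0.577). Control males had medians of 7.61 FPKM on standard and 11.9 on restricted feed, and control females 7.41 and 10.6. AD males had 9.06 and 9.26, and AD females 7.63 and 8.66. The control mice of both sexes were thus higher on restricted feed, 10 of 10 each past the standard-feed median, as against 6 of 11 AD mice of each sex. Adamts17 rose with the restricted feed in control mice by 0.58 ± 0.118 (adjusted p = 0.0400), 1 of 3 loci called there (0.0141% of loci); the other 2, MSTRG.9646 and MSTRG.1756, carry no symbol. The call of Adamts17 was lost without 25 of the 85 libraries, with adjusted p up to 0.0982 without control males on restricted feed replicate 5, and narrowly with FPKM as deposited (adjusted p = 0.0532). It was also lost over loci with the symbol of 1 gene and without the 3 libraries of lowest correlation, where no locus was called. In AD mice its feed difference was -0.06 ± 0.114, and no locus was called in AD mice, where 1421 (6.69%) had an unadjusted p under 0.05.

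Among genes with higher interactions, Dnajb2, a co-chaperone gene of neurons, had 0.52 ± 0.140 (adjusted p = 0.804) and Unc13b, which primes synaptic vesicles for release, 0.39 ± 0.117 (adjusted p = 0.934). Slc20a1, a phosphate transporter gene, had 0.23 ± 0.068, Mtcl1, which crosslinks microtubules, 0.46 ± 0.154 and Rspo2, a Wnt signalling enhancer gene, 0.49 ± 0.163. Adamtsl5 (0.28 ± 0.093), Stac3 (0.27 ± 0.091) and the pseudogene Slc22a13b-ps (0.25 ± 0.085) followed. None of these 8 passed, with adjusted p from 0.804 to 0.934. Cbfa2t3 (-1.76 ± 0.512), Fndc5 (-1.12 ± 0.337) and Pramef8 (1.70 ± 0.579) were among the 20 by p but varied widely within groups: Cbfa2t3 ran from 3.06 to 20.7 FPKM in control males on standard feed and from 1.14 to 31.4 in AD males on it.

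**Figure D1:**
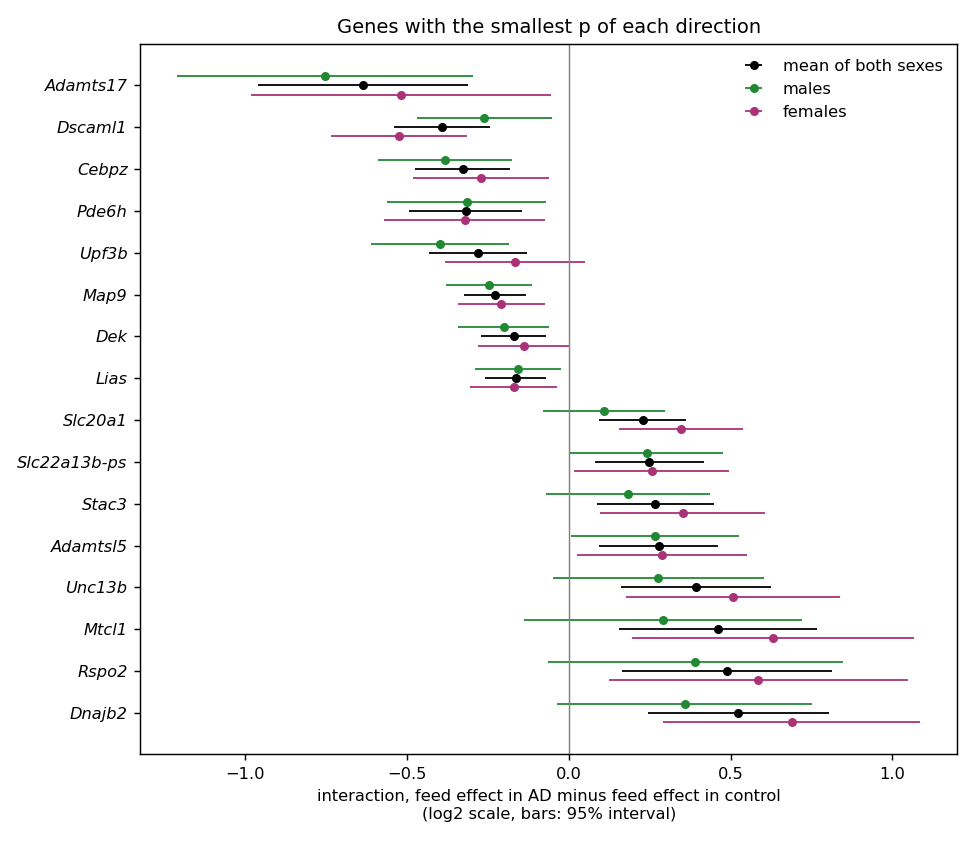
Interaction of genotype and feed on the log2 scale (horizontal axis) for leading genes of each direction named in the text (vertical axis), as the mean of both sexes (black), in males (green) and in females (purple), with 95% intervals; Cbfa2t3, Fndc5 and Pramef8 are left out for their wide intervals. Dscaml1, at -0.39, is the 1 gene whose averaged value passed.

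**Figure D2:**
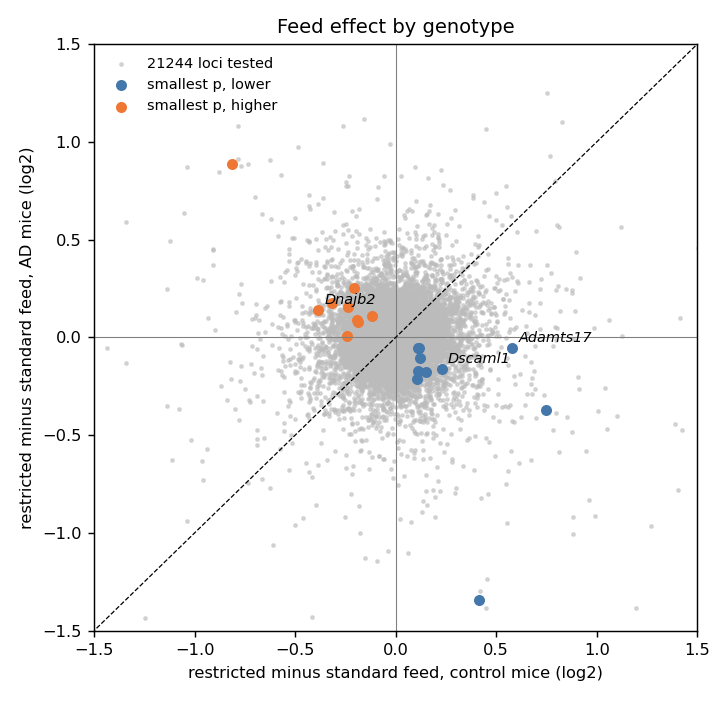
Restricted minus standard feed in control mice (horizontal axis) and in AD mice (vertical axis), both on the log2 scale, for all 21244 loci (grey) and the leading lower (blue) and higher (orange) genes by p named in the text; the dashed line marks equal feed differences, and 10 loci lie outside the axes. Across loci r is 0.01, and Dscaml1 sits at 0.23 in control and -0.16 in AD mice.

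Across all loci, the feed differences of control and AD mice, which share no library, correlated at Pearson r = 0.01 and Spearman rho = 0.04, as a description over loci that are not independent. Among the 200 loci of smallest p in control mice, 139 had the same sign in AD mice. Among the 200 in AD mice, 131 had it in control mice. Taken within each sex, these counts were 154 and 142 in males, and 95 and 114 in females. Over all loci the share with the same sign was 51.2%, and within each sex 53.9% in males and 52.3% in females. The number of loci called between genotypes was 59 on standard feed (0.278%) and 265 on restricted feed (1.25%), but the interaction, which is the test of that difference, called only Dscaml1.

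The interaction was also taken in each sex. In males 0 loci passed, with 774 (3.64%) at an unadjusted p under 0.05, and in females 7 passed (0.033%), with 1191 (5.61%) at an unadjusted p under 0.05. That female count ran from 0 to 11 without 1 library and was 0 in several other settings. The female calls were Dscaml1, Lyl1 and 4 loci without a symbol, all of which were lower, and Nadsyn1, which was higher. Across loci the interactions of males and females, from separate mice, correlated at r = 0.05 (rho = 0.07), and 53.4% had the same sign. Of the 200 loci with the smallest p in males 99 had the same sign in females, and of the 200 in females 82 had it in males.

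The difference of the interaction between the sexes passed for 10 loci (0.0471%), 3 higher in females and 7 lower; 929 (4.37%) had an unadjusted p under 0.05. The 3 higher ones were Sgk1, 8430408G22Rik and Nadsyn1, and the lower ones were Lyl1 and 6 loci without a symbol. Sgk1 encodes a kinase that serum and glucocorticoids induce. RefSeq lists 8430408G22Rik under the symbol Depp1, a gene known as a target of FOXO transcription factors; it and the loci without a symbol were singled out after their values were seen.

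Promoter windows of Sgk1 and Depp1 are shown because both genes had their highest group medians in AD males and control females on standard feed. RefSeq gives 6 windows for Sgk1, and the one printed was chosen because it alone holds a motif searched for. Each runs from 250 bases before to 50 after a RefSeq start on the plus strand of GRCm38.p6. Capitals mark a glucocorticoid response element, searched on both strands as AGAACA, any 3 bases, then TGTTCT.
Sgk1, chr10:21993640-21993939: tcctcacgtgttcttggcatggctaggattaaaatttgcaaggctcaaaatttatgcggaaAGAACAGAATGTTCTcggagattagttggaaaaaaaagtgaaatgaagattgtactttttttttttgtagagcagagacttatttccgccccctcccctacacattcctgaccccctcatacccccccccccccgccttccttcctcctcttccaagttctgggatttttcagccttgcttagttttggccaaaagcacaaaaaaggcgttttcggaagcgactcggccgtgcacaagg
Depp1, chr6:116650434-116650733: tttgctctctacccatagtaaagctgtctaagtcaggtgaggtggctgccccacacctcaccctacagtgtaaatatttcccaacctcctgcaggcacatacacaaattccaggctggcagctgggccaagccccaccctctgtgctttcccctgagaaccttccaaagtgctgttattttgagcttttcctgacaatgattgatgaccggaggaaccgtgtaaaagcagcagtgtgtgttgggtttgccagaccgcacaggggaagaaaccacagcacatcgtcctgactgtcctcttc
This Sgk1 window holds 1 match, a motif found in 3 of 32851 RefSeq windows (0.00913%), and the other 5 Sgk1 windows hold 0. The windows of the glucocorticoid targets Tsc22d3, Per1 and Fkbp5 hold 0 as well. The Depp1 window holds no match to it, nor to a cAMP response element (TGACGTCA, 1.79% of windows), a forkhead element (TGTTTAC, 3.65%) or an amino acid response element (TTGCATCA, 0.895%). A match is a description of these letters only, and other forms of these motifs were not searched for.

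Sgk1 went opposite ways in the sexes. Control males had 83.0 to 188 FPKM (median 114) on standard feed and 89.5 to 199 (median 128) on restricted feed, and AD males 127 to 259 (median 166) and 61.4 to 158 (median 94.5). All 11 AD males on standard feed lay above the control median, and 10 of 11 AD males on restricted feed lay below every AD male on standard feed. Control females had 79.2 to 268 (median 140.3) on standard feed and 62.8 to 135 (median 93.8) on restricted feed, and AD females 55.4 to 166 (median 107) and 81.0 to 266 (median 128). In females it was the control mice that were lower on restricted feed, 10 of 10 below the standard-feed median, and 9 of 11 AD females on that feed were above theirs. The interaction was -1.005 ± 0.251 in males (adjusted p = 0.996) and 1.05 ± 0.254 in females (adjusted p = 0.121), and the female minus male difference was 2.06 ± 0.357 (adjusted p = 0.00135). Within AD males Sgk1 fell by 0.88 on the log2 scale with the restricted feed (SE 0.175, adjusted p = 0.0291), 1 of 3 loci called there (0.0141%). Averaged over sex, the interaction was 0.02 ± 0.178 (adjusted p = 0.996).

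Depp1 (8430408G22Rik) was also highest in AD males and control females on standard feed, at a low level. Control males had 0.291 to 1.02 FPKM (median 0.469) on standard feed and 0.210 to 1.28 (median 0.841) on restricted feed, and AD males 0.988 to 1.90 (median 1.22) and 0.254 to 1.19 (median 0.504). Of the AD males on standard feed, 10 of 11 lay above every control male on it. Control females had 0.716 to 2.27 (median 1.34) on standard feed and 0.241 to 1.26 (median 0.566) on restricted feed, and AD females 0.334 to 1.48 (median 0.635) and 0.461 to 2.001 (median 0.895). All 11 AD males and all 10 control females on restricted feed lay below the standard-feed median of their group. The interaction was -0.79 ± 0.164 in males (adjusted p = 0.150) and 0.68 ± 0.166 in females (adjusted p = 0.123), with a difference of 1.47 ± 0.233 (adjusted p = 0.000367). In AD males Depp1 fell by 0.56 with the restricted feed (SE 0.115, adjusted p = 0.0355).

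Nadsyn1 encodes the glutamine-dependent NAD synthetase. Control males had 1.16 to 1.995 FPKM (median 1.45) on standard feed and 1.296 to 1.77 (median 1.55) on restricted feed, and AD males 1.17 to 1.59 (median 1.48) and 1.14 to 1.59 (median 1.28). Control females had 1.43 to 1.95 (median 1.67) on standard feed and 1.06 to 1.59 (median 1.25) on restricted feed, and AD females 1.18 to 1.60 (median 1.39) and 1.301 to 1.72 (median 1.56). Control females stood out, with 10 of 10 on restricted feed below the standard-feed median, and there Nadsyn1 fell by 0.23 (SE 0.047, adjusted p = 0.0170), 1 of 14 loci called there (0.0659%). The interaction was -0.12 ± 0.064 in males and 0.30 ± 0.065 in females (adjusted p = 0.0466), and the difference 0.43 ± 0.092 (adjusted p = 0.0325). The female call was lost without 45 of the 85 libraries, with adjusted p up to 0.127. The call of the sex difference was lost without 22 of the 85 libraries, with adjusted p up to 0.0632 without control females on restricted feed replicate 5, and with FPKM as deposited (adjusted p = 0.137).

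Lyl1, a helix-loop-helix transcription factor gene of blood-forming and endothelial cells, moved the other way. Control males had 1.76 to 2.79 FPKM (median 2.18) on standard feed and 1.39 to 2.20 (median 1.89) on restricted feed, and AD males 1.32 to 2.69 (median 1.84) and 1.79 to 2.78 (median 2.27). Control females had 1.27 to 2.35 (median 1.87) on standard feed and 1.93 to 3.595 (median 2.45) on restricted feed, and AD females 1.83 to 3.88 (median 2.76) and 1.88 to 3.31 (median 2.19). On standard feed 10 of 11 AD females lay above every control female, and on restricted feed only 4 of 11 lay above the control median. The interaction was 0.32 ± 0.107 in males, -0.51 ± 0.108 in females (adjusted p = 0.0466) and the difference -0.83 ± 0.152 (adjusted p = 0.00276). The female call of Lyl1 was lost without 40 of the 85 libraries, with adjusted p up to 0.127, and the call of its sex difference without 0. Among 16 measured genes of brain endothelium and mural cells, which could hold Lyl1 transcripts, 7 had a positive averaged interaction and 8 a positive female minus male difference (median 0.01). Among 12 homeostatic microglia genes 10 had a positive difference (median 0.13). Which cells held the Lyl1 transcripts was not tested.

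**Figure D3:**
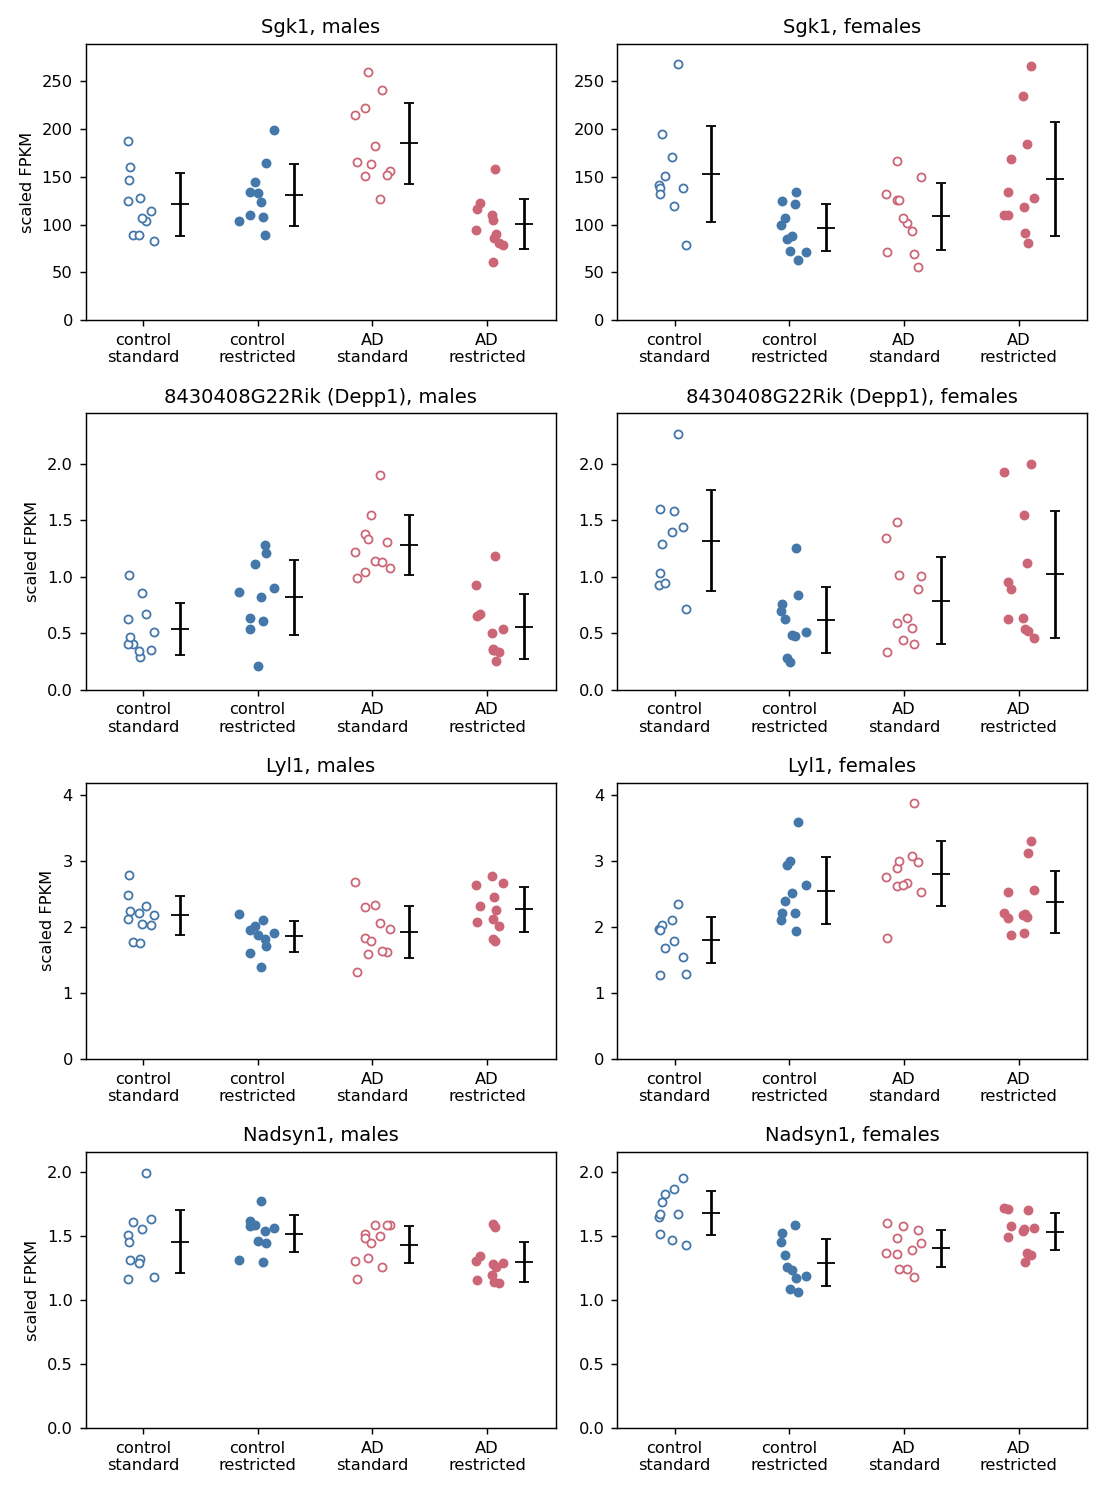
Sgk1, 8430408G22Rik (Depp1), Lyl1 and Nadsyn1 in scaled FPKM (vertical axes, from 0) in each mouse by genotype and feed (horizontal axes), males left and females right; open points are standard feed, filled points restricted feed, and bars give the mean and SD. Sgk1 and Depp1 are highest in AD males and in control females on standard feed, with medians of 166 and 140.3 for Sgk1.

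The genes of this paragraph had a positive sex difference that did not pass, and were singled out after their values were seen, Arc apart. Arc, an immediate early gene of synaptic plasticity, had -0.66 ± 0.298 in males and 1.04 ± 0.302 in females, a difference of 1.70 ± 0.425 (adjusted p = 0.165). One AD male on standard feed, replicate 11, reached 173 FPKM of Arc, where the median of that group was 21.9. The same mouse was at 403.5 FPKM for Nr4a1 (group median 37.9), 127 for Arl4d (13.9) and 147 for the locus that holds Per1 (35.7). Without it the difference of Arc was 1.42 (adjusted p = 0.0448). Nfkbia, an inhibitor of NF-kappa-B, differed by 0.87 ± 0.215 (adjusted p = 0.165), Nr4a1, a nuclear receptor gene of the early response, by 1.56 ± 0.441 (adjusted p = 0.432), and the splicing kinase gene Clk1 by 0.65 ± 0.146 (adjusted p = 0.0561). Tsc22d3, a glucocorticoid target, differed by 0.68 ± 0.237 (adjusted p = 0.877), the locus that holds the clock gene Per1 by 0.66 ± 0.284, the small GTPase gene Arl4d by 1.88 ± 0.488 (adjusted p = 0.233) and the cytokine kinase gene Jak2 by 0.62 ± 0.150 (adjusted p = 0.150). Of 25 measured immediate early genes 19 had a higher interaction in females than in males (median difference 0.43), with medians of -0.34 in males and 0.12 in females. The mean log2 level of this list in that mouse was 6.63, where the group median was 3.93. Without it, a choice made after seeing the data, 16 of 25 were higher (median difference 0.13), with a median of -0.05 in males. Of 19 glucocorticoid response genes 11 were higher (median difference 0.26) and Sgk1 was the 1 called. Over all loci 53.2% were higher, with a median of 0.02.

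No gene of methionine metabolism passed in the averaged interaction. Of 26 measured genes of the methionine cycle, one-carbon and polyamine metabolism 10 had a positive averaged interaction (median -0.03), with 0 called and 0 at an unadjusted p under 0.05. Mat2a, which makes S-adenosylmethionine in brain, had 0.18 ± 0.191 (95% interval -0.20 to 0.56), which was 0.06 without AD males on restricted feed replicate 4, at 61.0 FPKM where its group median was 7.75, and Ahcy, which clears S-adenosylhomocysteine, -0.11 ± 0.064. Of 19 transsulfuration, hydrogen sulfide and taurine genes 9 were positive (median -0.02) and 0 called, with the taurine transporter gene Slc6a6 at -0.09 ± 0.105. Of 28 ATF4 targets 14 were positive (median -0.0015) and 0 called, and asparagine synthetase, Asns, had -0.06 ± 0.090. Among 21 genes of the FGF21 and insulin-like growth factor axis 6 were positive (median -0.12), and of 26 NRF2, glutathione and antioxidant genes 7 were (median -0.04), again with 0 called. Fgf21 itself and Klb were not among the loci tested, nor were the ATF4 targets Trib3, Atf3, Pycr1, Stc2 and Gdf15.

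Lists of immune cells had mostly positive interactions. Of 12 homeostatic microglia genes 11 had a positive interaction (median 0.15), of 9 complement and Fc receptor genes 9 did (median 0.11), and of 10 antigen presentation genes 9 did (median 0.25). The feed difference of homeostatic microglia genes had a median of -0.13 in control mice and 0.06 in AD mice. For complement and Fc receptors these were -0.07 and 0.07, and for antigen presentation -0.09 and 0.18. Of the 9 complement and Fc receptor genes 5 had a positive interaction in males (median 0.02) and 9 in females (median 0.15). Of all loci 45.2% did in males and 49.1% in females. The locus that holds Aif1, the microglial marker also called Iba1, had 0.37 ± 0.182, Fcrls, a scavenger receptor gene of microglia, 0.36 ± 0.180, and the locus that holds Tapbp, which loads peptides onto class I molecules, 0.49 ± 0.198. Of 24 plaque-associated microglia genes 18 were positive (median 0.09), with Trem2 at 0.14 ± 0.152 and Cst7 at 0.07 ± 0.147, and of 16 reactive astrocyte genes 14 were (median 0.10), with Gfap at 0.06 ± 0.148. None of these genes was called, and their adjusted p were at or above 0.934. AD females on restricted feed replicate 10, the library lowest in neuronal markers, was at 115 FPKM of Trem2 (group median 37.3). Without it Trem2 was at 0.06 and Cst7 at -0.03, and 16 of the 24 plaque-associated genes were positive (median 0.04). In females 17 of these 24 were positive with all libraries (median 0.09) and 9 without that library (median -0.02). The averaged medians without it were 0.12 for homeostatic microglia and 0.06 for complement and Fc receptors.

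Lists of neuronal genes differed in their lean, and 0 of their genes were called. Of 26 hippocampal subfield markers 5 were positive (median -0.18), of 30 glutamate receptor genes 11 (median -0.07) and of 21 GABA genes 2 (median -0.07). Grik5, a kainate receptor subunit, had -0.21 ± 0.071. Of 29 presynaptic release genes 15 were positive (median 0.0025), with Unc13b above. The amyloid precursor processing list had 2 of 14 positive (median -0.07), and App had -0.07 ± 0.097. The cholesterol and fatty acid synthesis list had 21 of 30 positive (median 0.03), with Insig1, which restrains sterol synthesis, at 0.16 ± 0.090. Respiratory chain genes had 7 of 42 positive (median -0.03), mitochondrial biogenesis genes 5 of 19 (median -0.05), endoplasmic reticulum chaperones 7 of 19 (median -0.02) and ribosomal proteins 19 of 38 (median 0.0020). Homeostatic astrocyte genes had 5 of 17 positive (median -0.04), interneuron genes 12 of 18 (median 0.06), oligodendrocyte precursor genes 6 of 10 (median 0.03), lysosome and autophagy genes 11 of 29 (median -0.01) and circadian clock genes 6 of 19 (median -0.06). Markers of neighbouring tissue had 4 of 10 positive for striatum (median -0.05), 6 of 12 for thalamus and habenula (median -0.02) and 3 of 3 for blood cells (median 0.05). How far the balance of neurons and glia in the dissected tissue shares in these medians was not tested.

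Several lists had opposite medians in the sexes. Over all loci 45.2% of interactions were positive in males and 49.1% in females. Myelin genes had 4 of 20 positive in males (median -0.17) and 19 of 20 in females (median 0.58), and the female minus male difference was positive for 19 (median 0.75). Mbp, the myelin basic protein gene, singled out after its values were seen, had -0.25 ± 0.298 in males and 0.58 ± 0.302 in females. The type I interferon list had 2 of 18 positive in males (median -0.10) and 18 of 18 in females (median 0.24), with Xaf1 at -0.16 ± 0.165 and 0.67 ± 0.167. Choroid plexus genes, from tissue beside the hippocampus, had 0 of 15 positive in males (median -0.31) and 8 of 15 in females (median 0.03), and meningeal genes 2 of 14 and 12 of 14. Not 1 gene of these 4 lists was called in either sex or in the difference. The myelin mean log2 level per library spanned 5.07 to 6.60 in AD females on standard feed and 6.06 to 7.44 in AD females on restricted feed, so that the ranges overlapped. The lowest of all were AD females on standard feed replicate 5 (5.07) and control females on restricted feed replicate 5 (5.31), both among the 3 libraries of lowest correlation. Without those 3 the female median was 0.29 with 19 of 20 positive, and the averaged median was 0.06 with 14 of 20 positive. Group medians of the myelin list mean lay between 6.40 and 6.54 in the 4 female groups. The meningeal list had a female median of 0.32 with all libraries, and 0.51 with 14 of 14 positive without those 3. The median female minus male difference was then 0.72 for meningeal and 0.45 for myelin genes. Interferon and choroid plexus genes then had female medians of 0.23 and 0.0076.

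**Figure D4:**
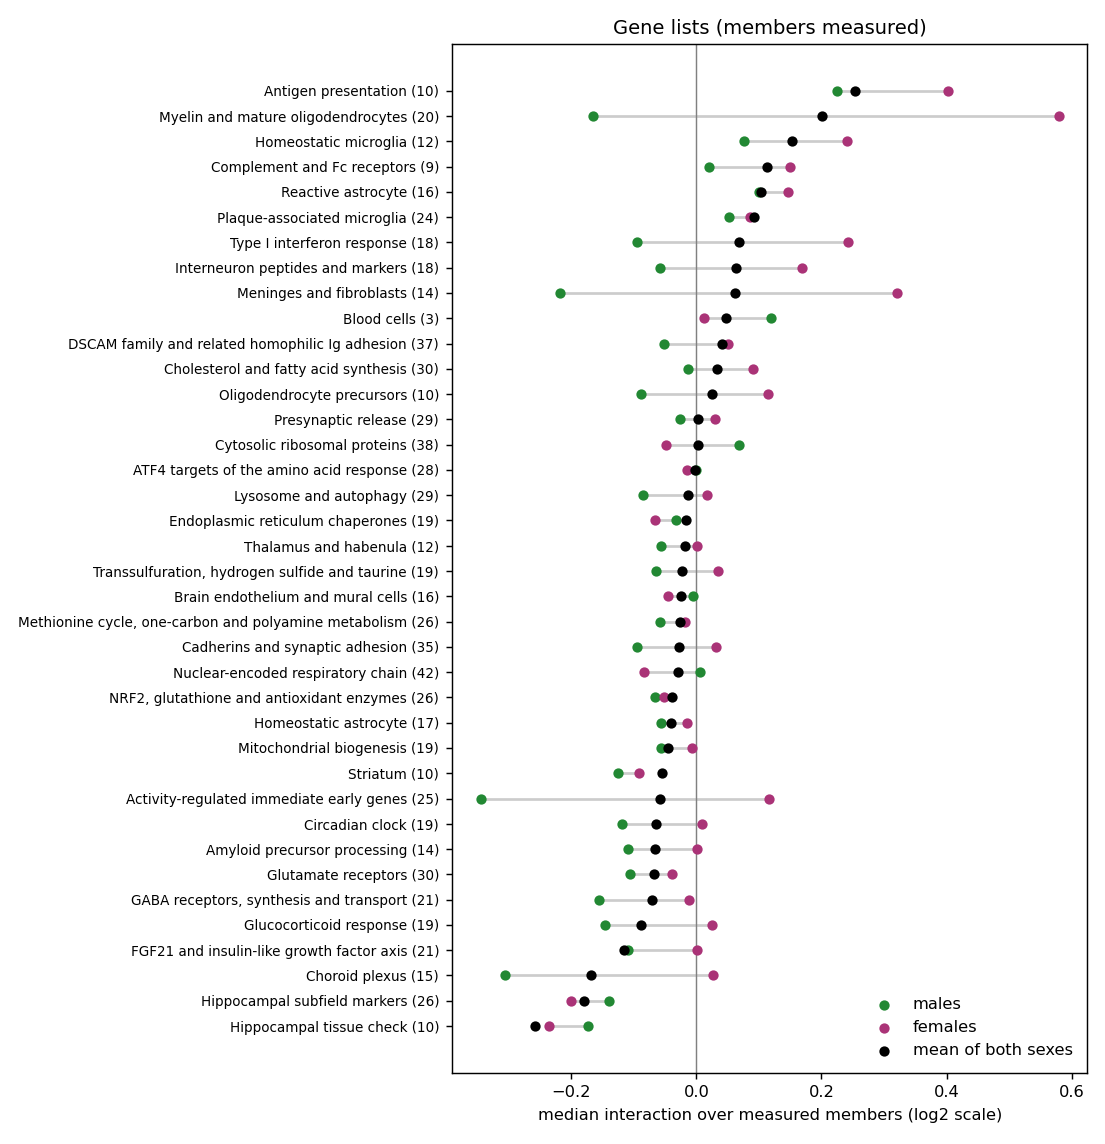
Median interaction of genotype and feed on the log2 scale (horizontal axis) over the measured members of 38 gene lists (vertical axis, members measured in brackets), in males (green), in females (purple) and as the mean of both sexes (black). The tissue check for hippocampus has the lowest averaged median, -0.26, and the myelin list the widest gap between the sexes, from -0.17 to 0.58.

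Several genes with large interactions had wide values within groups, and none of them passed. Nr3c1, the glucocorticoid receptor gene, had an interaction of 1.16 ± 0.462, but ran from 0.652 to 49.4 FPKM in control males on restricted feed and from 32.5 to 39.4 in AD females on that feed. Nr4a3 (1.03 ± 0.464) ran from 26.6 to 945 in AD males on standard feed, Prox1, a transcription factor gene of dentate granule cells (-1.11 ± 0.520), from 0.733 to 12.2 in control females on it, and Yaf2, with 1.21 ± 0.313 in males, from 42.2 to 225 in AD males on it. The locus that holds Cacng8, an AMPA receptor subunit gene, had -0.75 ± 0.302, and Mt1, a metallothionein gene, -0.27 ± 0.102 (adjusted p = 0.934).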

How the data were processed

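Hippocampal RNA of 85 mice was sequenced on a BGI-500 instrument after phenol-chloroform extraction, per the labels' protocols. The submitters' processing notes name Trimmomatic 0.38, HISAT2, StringTie 1.3.4d and the build GRCm38.p6, with no role or order. The values deposited by the authors are FPKM per assembled locus. No source used here gives strandedness, depth or library batch. The labels say that samples are separate mice.

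The table has 56090 rows, 14100 of them with no symbol. Rows of equal symbol were summed, giving 53877 loci, of which 1477 carry several symbols, so that a locus can hold more than 1 gene. Libraries were scaled by median of ratios (factors 0.867 to 1.11). Loci at 1 FPKM or more in at least 10 libraries were kept, 21244 in all (12557 with 1 symbol, 1395 with several, 7292 with none). Fold changes are differences of log2(FPKM + 1), from the deposited FPKM, and understate the change of low loci. limma 3.58.1 in R 4.3.3 fitted 8 group means with a trended, robust prior (77 residual degrees of freedom), with Benjamini-Hochberg adjustment. Python 3.11.15, pandas 2.3.3 and matplotlib 3.10.9 served for tables and figures. The fit was tested on simulated data.

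The genes named are those called in the averaged interaction, the 10 of smallest p in each direction, 10 genes fixed by name (Dscaml1, Prnp, App, Mat2a, Asns, Slc6a6, Cst7, Trem2, Gfap, Arc), up to 3 of each gene list by p, and those called, or the 3 of smallest p, in each sex and in the sex difference. Some genes that the rule takes are not reported here. Genes outside that rule are said to be singled out. Members and lists were chosen with earlier results of these data known. Alternatives were other pseudocounts, filters and scalings, loci with the symbol of 1 gene, no trend, array weights, tissue and marker covariates, a replicate block, the compared groups alone, and leaving out libraries. Promoter windows came from RefSeq, GRCm38.p6.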

Additional observations from a re-analysis of the deposited data

Results flagged for a closer look

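In groups of 10 mice, a mouse whose gap to its nearest neighbour took more than 0.466 of the group's range was noted, which chance gives in about 1 in 20 groups. It happened in 4 of 39 sets, over 13 genes. The groups of 10 were control males on restricted feed and control females on either feed, so no AD group was scanned. Adamts17 was at 21.55 FPKM in control males on restricted feed replicate 5, and Dscaml1 at 36.14 FPKM in control males on restricted feed replicate 11. Upf3b was at 171.7 FPKM in control females on restricted feed replicate 5 and at 156.1 FPKM in control males on restricted feed replicate 11.

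The interaction differed between the sexes, by the fitted female minus male difference, for 8430408G22Rik (1.465), Sgk1 (2.056), Nadsyn1 (0.4251), Lyl1 (-0.83) and 2 loci without a symbol, MSTRG.31844 (-2.141, adjusted p = 0.00135) and MSTRG.7504 (-1.129, adjusted p = 0.00276), all by limma. The last 2 were singled out after their values were seen.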

How the results depend on the processing

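The averaged interaction called 1 locus in the reported analysis, 2 with a filter at 5 FPKM, 4 with array weights, 2 with the 4 tissue covariates, 2 over loci with the symbol of 1 gene, and 0 with FPKM as deposited, with an equal total per library or with the 2 marker covariates. Leaving out 1 library gave 1 to 2. In males the 0 calls became 1 with the 4 tissue covariates, 1 in the compared groups alone and 1 with the 2 marker covariates (0 to 1 without 1 library). In females the 7 calls became 0 with a pseudocount of 0.1, with no filter, with a filter at 5 FPKM, as deposited, at equal totals, in the compared groups alone and without the 3 libraries of lowest correlation, 33 with array weights, 15 with the 4 tissue covariates, 3 over loci with 1 symbol and 4 with the 2 marker covariates (0 to 11 without 1 library). The 10 calls of the sex difference became 3 with a filter at 5 FPKM, 19 with array weights and 4 over loci with 1 symbol (8 to 12). The feed difference in AD mice, with 0 calls, had 1 with no filter and 6 with array weights (0 to 4). In control mice its 3 calls became 6 with a pseudocount of 5, 7 with no filter, 0 as deposited, 1 at equal totals, 215 with array weights, 14 with the 4 tissue covariates, 0 over loci with 1 symbol, 5 in the compared groups alone, 8 with the 2 marker covariates and 0 without the 3 libraries (0 to 26).

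The sign changed for Gfap with array weights (-0.0089), for Prnp (0.054), App (0.016), Asns (0.056) and Cst7 (-0.014) with the 2 marker covariates, and for Cst7 without the 3 libraries (-0.022) or without AD females on restricted feed replicate 10 (-0.031, the lowest of a range up to 0.103 without 1 library). The cause was not tested.

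By median, mice of equal replicate number in different groups did not deviate together more than other mice. Over 281 such pairs the correlation of deviations ran from -0.39 to 0.39 (median -0.0063), with 34 over 0.1. Over 2879 pairs of unequal number the median was -0.00059, and the count over 0.1 was not taken. Whether some numbers mark mice handled together was not tested further. With a replicate block Dscaml1 kept its value (-0.39, adjusted p = 0.0466 by limma) and the averaged interaction its 1 call, and the female count became 0. Depth is unknown, so counting error cannot be given.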
